A study of Danio rerio with 6 samples.

Results

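A set of 9 genes of the iridophore lineage and of purine synthesis were followed across sorted cells of the zebrafish trunk. They were chosen with earlier results of these data known, so shares of all genes set beside their calls are descriptive. Rows were taken from the deposited count table by gene symbol, and each symbol matched 1 row, so that 9 of 32520 genes are described. The members are ltk (ENSDARG00000042861), tfec (ENSDARG00000098745), pnp4a (ENSDARG00000057575), gart (ENSDARG00000101089), pfas (ENSDARG00000003750), paics (ENSDARG00000033539), atic (ENSDARG00000016706), impdh1b (ENSDARG00000029524) and gmps (ENSDARG00000079848). All 9 passed the filter on low counts, which left 17701 genes to test. RNA was measured in 6 bulk libraries, 2 in each of 3 groups, from wild-type embryos at 24 hours post fertilization (hpf) reared at 28 °C. Slow muscle was sorted on eGFP from the tgPAC(prdm1a:eGFP) transgene, which marks slow-twitch muscle and muscle pioneer cells. Cyclopamine neural crest was sorted on mRFP from the tg(sox10:mRFP) transgene after exposure to 100 µM cyclopamine, an inhibitor of the Hedgehog transducer Smoothened, from 50% epiboly to 24 hpf. Untreated neural crest was sorted on the same mRFP transgene without drug, and no vehicle is named for it in the labels. The titles of this last group call the cells slow-twitch, against the tissue and source fields, and the neural crest gene sums given below went with tissue and source. Per the series' design text the embryos carried both transgenes, and trunks were cut by hand before sorting. Separate embryo pools for the replicates are not stated in the labels, and the p-values below therefore measure only how far these samples differ, possibly for technical reasons.

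Iridophores are the reflective pigment cells of fish. They arise from the neural crest, as melanophores and xanthophores do, and carry stacks of guanine crystals, so that their pigment is itself a purine. De novo purine synthesis builds inosine monophosphate (IMP) on a ribose phosphate in a chain of steps that the enzymes Ppat, Gart, Pfas, Paics, Adsl and Atic carry out, and Impdh and Gmps then turn IMP into guanosine monophosphate. In zebrafish, Ltk signalling and the transcription factor Tfec are required for iridophores to form, and mutants of gart and paics have pigment defects. The same GTP pool also feeds the yellow pteridines of xanthophores.

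The libraries held 15355583 to 26441238 counts, and 13249 to 17275 genes had at least 1 count. A count of 0 allows a level of up to 0.127 to 0.177 CPM, that is, counts per library after scaling all libraries to 1 size, taken as 3 counts, and this floor covers counting error only. Cyclopamine replicate 4 stood apart. It had the fewest genes detected, and it had 1164 genes at 0 that reached 100 counts in its partner, against 122 to 421 in the other libraries. The Spearman correlation of the cyclopamine pair was 0.81 across genes, against 0.914 within slow muscle and 0.912 within untreated neural crest. That value belongs to both cyclopamine libraries and cannot tell which of them differs. Summed CPM of 9 neural crest genes was 259 to 275 in slow muscle, 6004 to 8255 in cyclopamine neural crest and 5968 to 6165 in untreated neural crest. Most of the slow muscle sum came from snai1b, with 188.9 and 156 CPM in slow muscle and 184.5 and 193.7 CPM in untreated neural crest. The sorted identities also showed in 9 rows of slow muscle genes, which summed to 26170 to 54710 CPM in slow muscle, 125 to 230 CPM in cyclopamine neural crest and 199 to 209 CPM in untreated neural crest. Fewer expressing cells and less RNA per cell cannot be told apart in bulk RNA.

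Every member was lower in both slow muscle libraries than in any neural crest library. Against untreated neural crest, 6 of 9 members fell in slow muscle by edgeR's quasi-likelihood test at an adjusted p under 0.05, namely ltk, gart, paics, atic, impdh1b and gmps, where 0.876% of all tested genes were called lower and 1.67% higher. The 3 others, tfec, pnp4a and pfas, were lower in each slow muscle library but did not pass that test. Groups that did not overlap, with slow muscle lower, were found for 9 of 9 members and for 27.3% of tested genes. The median log2 fold change of slow muscle against untreated neural crest was -4.30 over the members and 0.08 over all tested genes. No member passed the same test between cyclopamine and untreated neural crest.

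**Figure D1:**
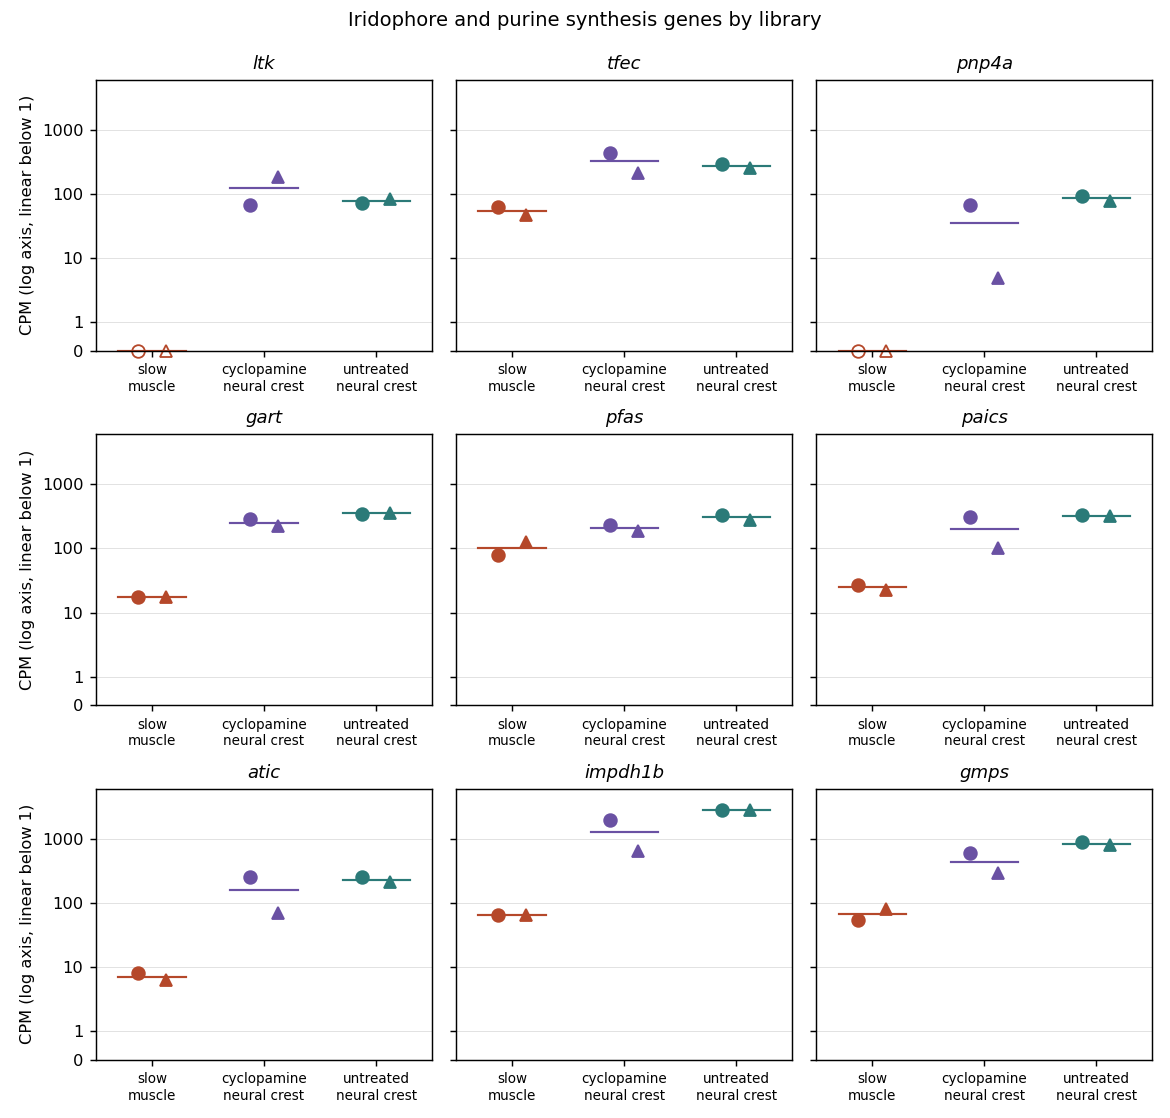
Level of each member in every library, in CPM on a log axis that is linear below 1. Points are libraries, open where the count was 0, and bars are group means of 2 libraries; slow muscle lies below both neural crest groups for all 9 genes, and the cyclopamine libraries lie further apart than the untreated ones.

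ltk encodes a receptor tyrosine kinase of the iridophore lineage. It had 0 counts in both slow muscle libraries, 66.1 and 184 CPM in cyclopamine replicates 3 and 4, and 71.3 and 83.2 CPM in untreated replicates 1 and 2. Slow muscle therefore stood below both neural crest groups, while the cyclopamine libraries lay on either side of the untreated ones. The group floor of 3 counts over both slow muscle libraries covers counting error alone. By that floor, ltk was at least 1100-fold lower in slow muscle than in untreated neural crest (edgeR adjusted p = 0.0177). Against cyclopamine neural crest it was at least 1780-fold lower (edgeR adjusted p = 0.0192), and at least 2620-fold without cyclopamine replicate 3 or 940-fold without replicate 4. With slow muscle replicate 1 or 2 left out, which raises the floor, the bound was 610-fold or 488-fold against untreated and 988-fold or 792-fold against cyclopamine neural crest. Loss of a gene before counting is not covered. In slow muscle replicates 1 and 2, 344 and 128 genes were at 0 with at least 100 counts in the other replicate. A local peak was sought in the smoothed distribution of counts over genes, within a fixed window that left out the lowest and highest counts. In these libraries it lay at 45 and 37 counts (2.37 and 1.56 CPM), so the ltk bounds may be too high. The mean was 125 ± 83.6 CPM in cyclopamine neural crest and 77.3 ± 8.42 CPM in untreated neural crest (SD, n = 2 each), a log2 fold change of 0.70 ± 0.57 (SE) with a 95% interval of -0.78 to 2.17 and an edgeR adjusted p of 0.92. ltk was the 1 member with its higher cyclopamine value in replicate 4.

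tfec encodes a transcription factor of the MiT/TFE family, to which the melanophore factor Mitfa also belongs. It measured 61.8 and 46.1 CPM in slow muscle, 435 and 210 CPM in cyclopamine neural crest, and 297 and 256 CPM in untreated neural crest. Unlike ltk, it was thus detected in slow muscle, although below every neural crest library, and the cyclopamine libraries again spanned the untreated values. The mean of 53.9 ± 11.1 CPM in slow muscle was 5.13-fold lower than the 277 ± 29.1 CPM in untreated neural crest (log2 change -2.36 ± 0.44, edgeR adjusted p = 0.0563). The 95% interval of that change ran from -3.44 to -1.28. Against cyclopamine neural crest the log2 fold change was -2.58 ± 0.45 (edgeR adjusted p = 0.0522). Cyclopamine against untreated neural crest gave 0.22 ± 0.42, with an interval of -0.81 to 1.25 (edgeR adjusted p = 1).

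The other members of the MiT/TFE family did not share that pattern as a group. Of 6 family genes, 5 were tested and 1, mitfa, fell in slow muscle, with 0 counts in both slow muscle libraries, 393 and 45.9 CPM in cyclopamine neural crest and 283 and 268 CPM in untreated neural crest (edgeR adjusted p = 0.0365 against untreated). In that comparison edgeR called 0.876% of all tested genes lower. DESeq2 called 2 of the 5 lower, tfec and mitfa, against 5.34% of all tested genes. In contrast, tfeb and tfe3b were detected in every library, and tfe3b reached 26.6 and 51.7 CPM in slow muscle, against 11.7 and 9.64 CPM in untreated neural crest (edgeR adjusted p = 0.275).

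pnp4a encodes a purine nucleoside phosphorylase, an enzyme of purine salvage that is used as an iridophore marker. It had 0 counts in both slow muscle libraries, 66.8 and 4.89 CPM in cyclopamine neural crest, and 94.1 and 77.6 CPM in untreated neural crest. Cyclopamine replicate 4 was low, with 104 counts, 1.07 times the count at which that library's distribution over genes had its local peak of 97 counts. By the same counting floor, pnp4a was at least 1220-fold lower in slow muscle than in untreated neural crest. Its edgeR adjusted p was 0.0554, above the threshold. Against cyclopamine neural crest it was at least 509-fold lower (edgeR adjusted p = 0.0681). That bound rests on cyclopamine replicate 3, since it was 69.4-fold without replicate 3 and 949-fold without replicate 4. Leaving out slow muscle replicate 1 or 2 raises the floor, and the bound was then 677-fold or 543-fold against untreated and 283-fold or 226-fold against cyclopamine neural crest. As for ltk, loss before counting is not covered, so the pnp4a bounds may be too high. The mean of 35.8 ± 43.8 CPM in cyclopamine neural crest and 85.9 ± 11.7 CPM in untreated neural crest gave a log2 fold change of -1.26 ± 1.16, whose 95% interval of -4.25 to 1.72 was the widest of the members in that comparison.

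The enzymes of IMP synthesis came next in the order of the pathway. gart encodes a trifunctional enzyme that acts early and again midway in the chain. It measured 17.8 and 17.7 CPM in slow muscle, 286 and 220 CPM in cyclopamine neural crest, and 340 and 362 CPM in untreated neural crest. The 3 groups did not overlap, with slow muscle lowest and untreated neural crest highest. In slow muscle gart fell 19.8-fold against untreated neural crest (log2 change -4.30 ± 0.32, edgeR adjusted p = 0.0119) and 14.2-fold against cyclopamine neural crest (-3.83 ± 0.32, edgeR adjusted p = 0.0154). Cyclopamine against untreated neural crest gave -0.47 ± 0.28, with an interval of -1.17 to 0.22 (edgeR adjusted p = 0.835).

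pfas encodes the amidotransferase between the first and the later Gart steps. It measured 78.1 and 127 CPM in slow muscle, 235 and 185 CPM in cyclopamine neural crest, and 325 and 280 CPM in untreated neural crest. It differed least between cell types among the members, though its groups did not overlap either. Its mean was 2.94-fold lower in slow muscle than in untreated neural crest (log2 change -1.56 ± 0.36, 95% interval -2.44 to -0.68, edgeR adjusted p = 0.0884). The drug comparison gave -0.53 ± 0.35 (edgeR adjusted p = 0.835).

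paics encodes a bifunctional carboxylase and synthetase. It measured 27.2 and 22.4 CPM in slow muscle, 306 and 100.4 CPM in cyclopamine neural crest, and 326 and 319 CPM in untreated neural crest. The untreated libraries nearly coincided, and cyclopamine replicate 3 lay just under them while replicate 4 lay far below. In slow muscle paics fell 13.0-fold against untreated neural crest (log2 change -3.70 ± 0.59, edgeR adjusted p = 0.0401). Against cyclopamine neural crest the log2 fold change was -3.03 ± 0.57 (edgeR adjusted p = 0.0624).

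atic encodes the enzyme of the last steps to IMP. It measured 8.02 and 6.21 CPM in slow muscle, 252 and 68.6 CPM in cyclopamine neural crest, and 252 and 209 CPM in untreated neural crest. Cyclopamine replicate 3 matched untreated replicate 1, and replicate 4 was below both untreated libraries. In slow muscle atic fell 32.3-fold against untreated neural crest (log2 change -5.01 ± 0.72, edgeR adjusted p = 0.0325) and 22.5-fold against cyclopamine neural crest (-4.49 ± 0.70, edgeR adjusted p = 0.0438). The drug comparison gave -0.52 ± 0.61 (edgeR adjusted p = 1).

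The enzymes that lead from IMP to GMP showed the same order of groups. impdh1b encodes an IMP dehydrogenase, the enzyme that commits IMP to guanine nucleotides. It measured 65.5 and 65.4 CPM in slow muscle, 1928 and 635 CPM in cyclopamine neural crest, and 2757 and 2841 CPM in untreated neural crest. No libraries of different groups overlapped. In slow muscle impdh1b fell 42.8-fold against untreated neural crest (log2 change -5.42 ± 0.66, edgeR adjusted p = 0.0227) and 19.6-fold against cyclopamine neural crest (-4.29 ± 0.62, edgeR adjusted p = 0.0391). Cyclopamine against untreated neural crest gave -1.13 ± 0.55, with an interval of -2.48 to 0.22 (edgeR adjusted p = 0.835).

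gmps encodes GMP synthetase. It measured 53.5 and 79.6 CPM in slow muscle, 589 and 289 CPM in cyclopamine neural crest, and 891 and 786 CPM in untreated neural crest, again without overlap. In slow muscle it fell 12.6-fold against untreated neural crest (log2 change -3.65 ± 0.48, edgeR adjusted p = 0.0281). Against cyclopamine neural crest the log2 fold change was -2.72 ± 0.46 (edgeR adjusted p = 0.0503). The drug comparison gave -0.93 ± 0.44, with an interval of -2.01 to 0.14 (edgeR adjusted p = 0.835).

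**Figure D2:**
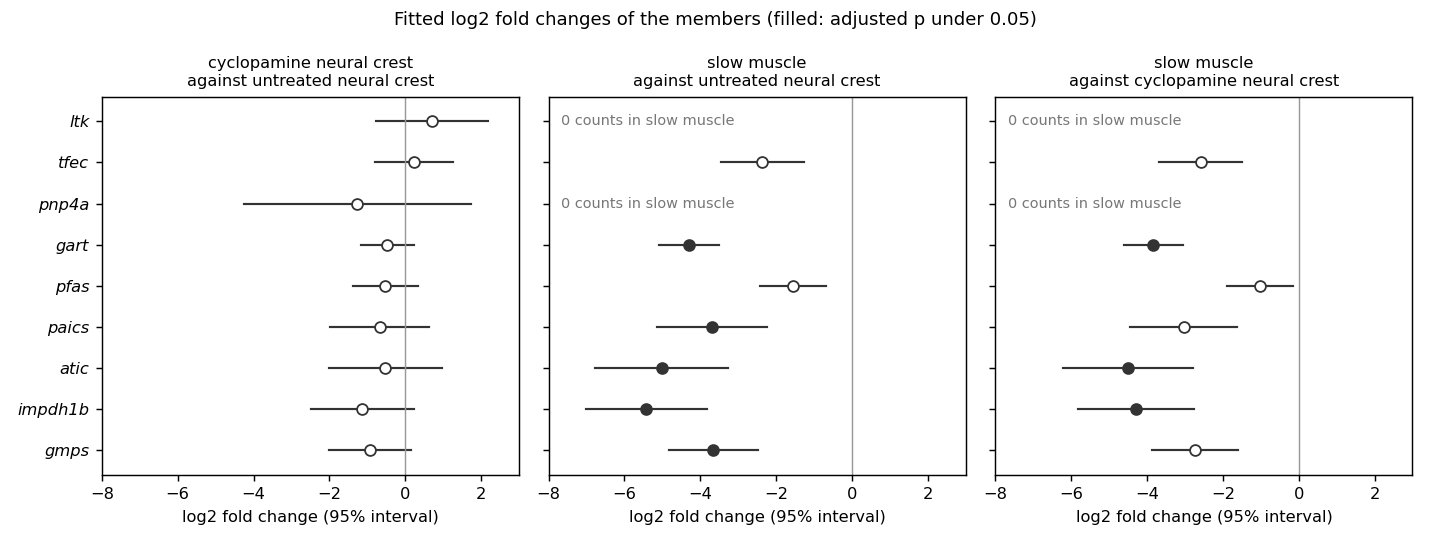
Fitted log2 fold changes of the members with 95% intervals from edgeR, one panel per comparison. Filled points passed an adjusted p of 0.05; slow muscle intervals lie below 0 where drawn, no cyclopamine interval leaves out 0, and no point is drawn where slow muscle had 0 counts.

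The calls against untreated neural crest depended on single libraries. Leaving out cyclopamine replicate 3 or replicate 4, which enter the shared estimate of spread, brought all 9 members past the threshold, where 4.98% and 5.05% of tested genes were called lower. Leaving out slow muscle replicate 1 or replicate 2 left 4 members, where 0.547% and 0.701% were called lower. Leaving out untreated replicate 1 or replicate 2 left 3, namely ltk, gart and impdh1b, where 0.204% and 0.219% were called lower. DESeq2 called all 9 lower, against 5.34% of tested genes.

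Slow muscle set against cyclopamine neural crest tested the same cells against the other neural crest group, and it shares its slow muscle libraries with the comparison above. Of the members, 4 of 9 fell, namely ltk, gart, atic and impdh1b, where 0.797% of tested genes were called lower and 1.38% higher. Slow muscle was below both cyclopamine libraries for 9 of 9 members and for 21.8% of tested genes. The median log2 fold change was -3.83 over the members and 0.12 over all tested genes. Without slow muscle replicate 1 or replicate 2, 2 members were called, ltk and gart, where 0.451% and 0.604% of tested genes were called lower. Without cyclopamine replicate 3 or replicate 4 the calls covered 8 members, all but pfas, where 5.77% and 3.28% were called lower. DESeq2 called the same 8, against 5.86%.

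Cyclopamine against untreated neural crest gave no call among the members or among any of the tested genes by edgeR (0%), although 767 genes, or 4.33%, had an unadjusted p under 0.05, none of them a member. DESeq2 called 0.836% of genes higher and 0.859% lower, 300 in all, and no member. Both cyclopamine libraries lay below both untreated libraries for 6 of 9 members, pnp4a, gart, pfas, paics, impdh1b and gmps, and for 16.6% of tested genes. None lay above them, against 14.6% of tested genes. The median log2 fold change was -0.53 over the members and 0 over all tested genes. The intervals above still hold changes in both directions, so the lack of a call does not show equal levels.

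The cyclopamine libraries disagreed about the members more than the other replicates did. In replicate 3 the members stood at 0.689 to 1.57 times the untreated mean, and in replicate 4 at 0.0569 to 2.39 times it. In replicate 4, paics, atic, impdh1b and gmps were at 0.311, 0.298, 0.227 and 0.345 times the untreated mean, gart and pfas at 0.627 and 0.61 times, and pnp4a at the lowest value. Replicate 3 was the higher of the pair for 8 of 9 members, and for 54.2% of the 3887 genes with a mean of at least 50 CPM. Over the members, the median fold between replicates was 1.21 for slow muscle, 2.76 for cyclopamine neural crest and 1.16 for untreated neural crest. Over the 3887 genes it was 1.27, 1.65 and 1.16 in the same groups.

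**Figure D3:**
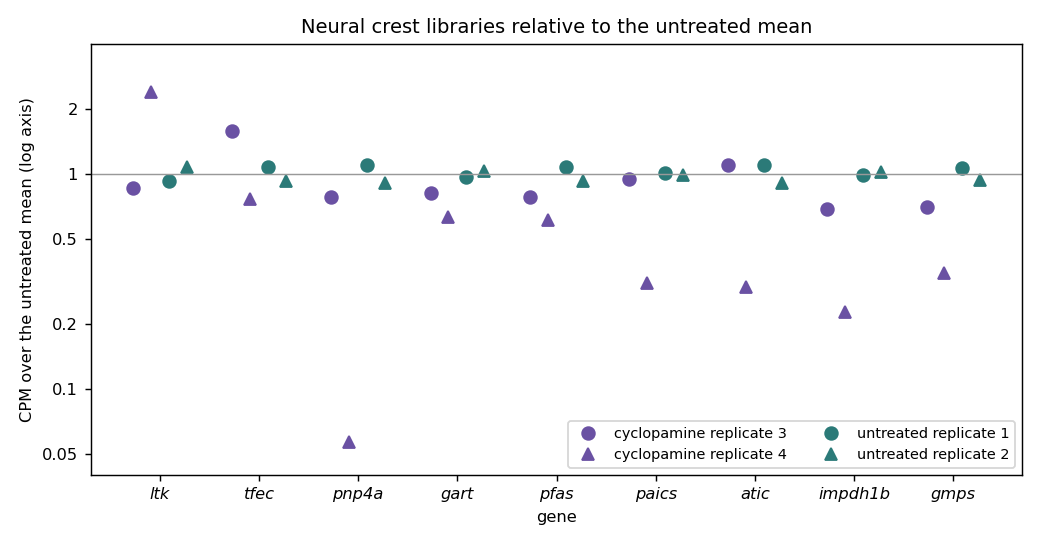
Level of each member in the 4 neural crest libraries, divided by the untreated mean of that gene, on a log axis. Cyclopamine replicate 4 (purple triangles) is the lowest library for 8 of the 9 genes and the highest for ltk.

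Which cyclopamine library was kept decided the drug result. Without replicate 3, 5 members were called lower against untreated neural crest, among 4.87% of tested genes called lower and 2% called higher. On the log2 scale they changed by -4.12 for pnp4a, -2.13 for impdh1b, -1.74 for atic, -1.68 for paics and -1.53 for gmps. The pnp4a change rests on 104 counts in cyclopamine replicate 4, 1.07 times that library's local peak. For impdh1b, atic, paics and gmps the counts were 139, 15.1, 22 and 63.5 times that peak. Without replicate 4, no member was called and 17 genes were, with 0.0494% of tested genes higher and 0.0346% lower. In both cases 1 library stands for cyclopamine and is assumed to vary as the other groups do.

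Lists of marker genes also differed between the cyclopamine replicates, in both directions. The 11 melanophore genes summed to 1795 CPM in cyclopamine replicate 3 and 804 CPM in replicate 4, against 2275 to 2625 CPM in untreated neural crest, and tyrp1b, a melanin enzyme gene, was at 122 CPM in replicate 3 and 0 in replicate 4. Of the 11, 10 were higher in replicate 3, and trpm1b was higher in replicate 4, with 225 CPM in replicate 3 and 452 CPM in replicate 4. The 7 xanthophore genes summed to 3173 CPM in replicate 3 and 1749 CPM in replicate 4, against 5532 to 5606 CPM in untreated neural crest. These split, since gch2, aox5, slc2a15b and slc2a11b were higher in replicate 3, and csf1ra, pax7a and pax7b were higher in replicate 4, pax7a by little with 226 CPM in replicate 3 and 228 CPM in replicate 4. gch2, a gene of pteridine synthesis, made the greatest difference to the sum, with 1015 CPM in replicate 3 and 143 CPM in replicate 4. Neural crest genes summed to 6004 CPM in replicate 3 and 8255 CPM in replicate 4, with 4 of 9 higher in replicate 3 and 5 in replicate 4. Notochord and floor plate genes summed to 31.6 CPM in replicate 3 and 779 CPM in replicate 4, against 24.1 to 31.4 CPM in untreated neural crest. Epidermal genes summed to 1486 CPM in replicate 3 and 308 CPM in replicate 4, with 9 of 9 higher in replicate 3. Erythroid genes summed to 116 and 38.5 CPM, with 7 of 7 higher in replicate 3. Of 20 cell cycle genes, 14 were higher in replicate 3 and 6 in replicate 4. Endothelial genes summed to 112 and 209 CPM, with 2 higher in replicate 3 and 6 in replicate 4. The part of these cells, and of the library's fewer detected genes, in the members' values was not tested.

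The full list of de novo purine synthesis genes holds 16 genes, all tested, of which 6 are members. In slow muscle against untreated neural crest edgeR called 6 lower and none higher, where 0.876% of all tested genes were called lower. These were gart, paics, atic, impdh1b and gmps among the members, and prps1a alone among the 10 other genes. DESeq2 called 9 of the 16 lower and none higher, against 5.34% of all tested genes called lower. prps1a, a source of the ribose phosphate substrate, measured 56.1 and 59.2 CPM in slow muscle, 302 and 205 CPM in cyclopamine neural crest, and 326 and 328 CPM in untreated neural crest (log2 change -2.50 ± 0.32 against untreated, edgeR adjusted p = 0.0266). Summed over the list, slow muscle had 645 to 696 CPM, cyclopamine neural crest 1914 to 4512 CPM and untreated neural crest 5710 to 5799 CPM. impdh1b alone held 65.5 and 65.4 CPM of the slow muscle sums. It held 1928 and 635 CPM of the cyclopamine sums and 2757 and 2841 CPM of the untreated sums. The median log2 fold change of the list was -1.88 in slow muscle against untreated neural crest and -0.50 in cyclopamine against untreated neural crest, where none of the 16 was called.

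The remaining genes of the chain to IMP were ppat and adsl. ppat, the gene of the first committed step, measured 4.59 and 10.7 CPM in slow muscle, 126 and 38.8 CPM in cyclopamine neural crest, and 121 and 165 CPM in untreated neural crest (edgeR adjusted p = 0.0533 for slow muscle against untreated). In the RefSeq table of assembly GRCz12tu, ppat and paics are neighbours whose spans overlap, and sox12 and fn1b overlap pnp4a and atic. No source used here gives the strand setting of the counting, so reads of such neighbours may have been counted to either gene. adsl, which acts in both the IMP and the adenylate arms, measured 49.3 and 47.1 CPM in slow muscle, 139 and 43.4 CPM in cyclopamine neural crest, and 200 and 149.6 CPM in untreated neural crest (edgeR adjusted p = 0.165). For slow muscle against untreated neural crest, DESeq2 called both lower, with adjusted p of 6.72e-07 for ppat and 0.0275 for adsl.

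Some other genes for the same enzyme reactions, impdh2, adss2 and pnp5a, chosen after their values were seen, were highest in slow muscle. impdh2, the second IMP dehydrogenase gene, measured 92.8 and 66.6 CPM in slow muscle, 57.8 and 5.45 CPM in cyclopamine neural crest, and 22.5 and 27.8 CPM in untreated neural crest. Its slow muscle libraries were thus above every neural crest library, whereas those of impdh1b were below all of them. adss2, an adenylosuccinate synthase gene of the AMP arm, measured 111 and 84.4 CPM in slow muscle, 5.3 and 0 CPM in cyclopamine neural crest, and 0 and 1.54 CPM in untreated neural crest. Its relative adss1 measured 42.7 and 61.5 CPM in slow muscle, 168 and 60.9 CPM in cyclopamine neural crest, and 140 and 144 CPM in untreated neural crest. In the purine nucleoside phosphorylase family, pnp5a measured 178 and 181 CPM in slow muscle, 30.8 and 4.65 CPM in cyclopamine neural crest, and 53.0 and 58.0 CPM in untreated neural crest, where pnp4a had no slow muscle counts. pnp5b of the same family did not share this, with 8.12 and 2.03 CPM in slow muscle, 9.69 and 19.7 CPM in cyclopamine neural crest, and 7.70 and 16.0 CPM in untreated neural crest. impdh1a was low throughout, at 0 and 1.9 CPM in slow muscle, 0 in both cyclopamine libraries, and 0 and 2.48 CPM in untreated neural crest.

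None of the first 4 passed the test against untreated neural crest. The log2 fold change of slow muscle was 1.66 for impdh2 (edgeR adjusted p = 0.409), 6.99 for adss2 (edgeR adjusted p = 0.221), -1.45 for adss1 (edgeR adjusted p = 0.222) and 1.69 for pnp5a (edgeR adjusted p = 0.312). DESeq2 did not call impdh2, adss2 or pnp5a either, with adjusted p of 0.264, 0.162 and 0.131. For the fits below without a cyclopamine library, the shares of all tested genes called lower are those given above for the members. Without cyclopamine replicate 4, 10 genes of the de novo list were lower and 2 higher in slow muscle, the 2 being impdh2 with 1.67 (edgeR adjusted p = 0.0178) and adss2 with 7.01 (edgeR adjusted p = 0.00913). In that fit 9.83% of all tested genes were called higher, so the 2 higher calls among 16 are near the background. There pnp5a was also higher, with 1.69 (edgeR adjusted p = 0.00539). Leaving out cyclopamine replicate 3 instead gave the same numbers of higher and lower genes in the de novo list, with edgeR adjusted p = 0.0261 for impdh2 and 0.013 for adss2, where 9.77% of all tested genes were called higher.

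**Figure D4:**
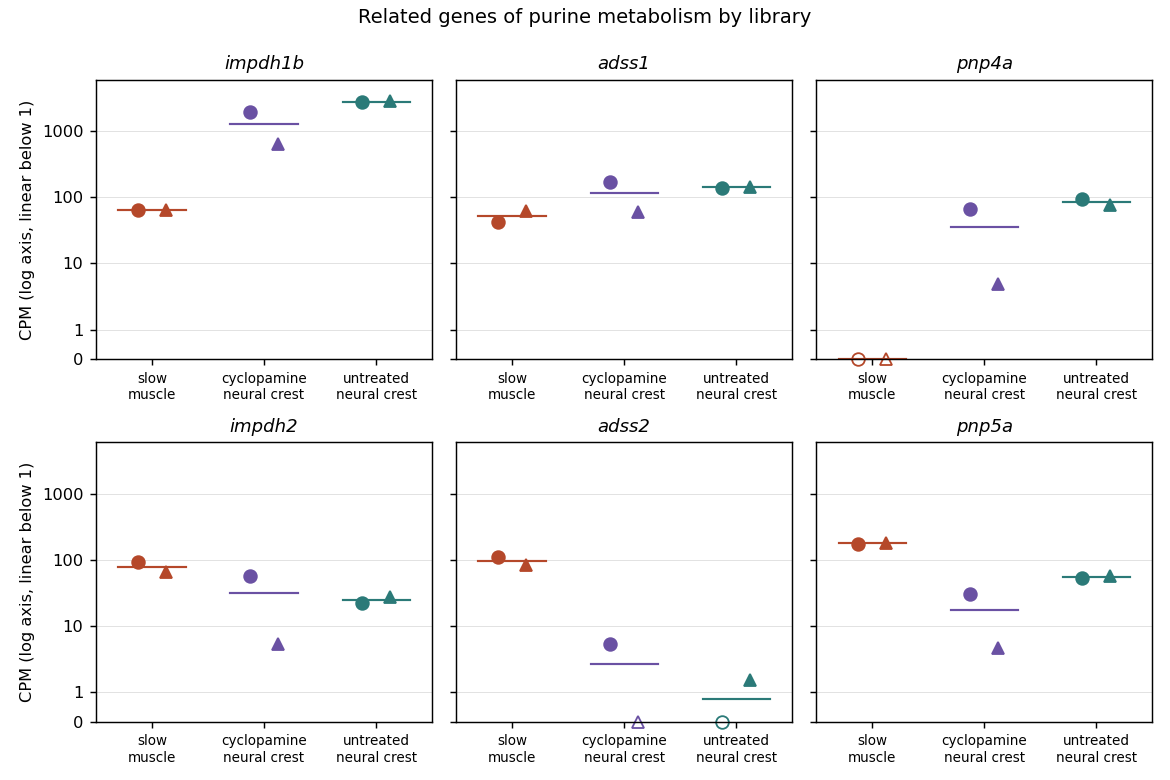
Level in every library of impdh1b, adss1 and pnp4a (top) and of impdh2, adss2 and pnp5a (bottom), related genes of the same reactions, in CPM on a log axis that is linear below 1. By group mean the upper genes are lowest in slow muscle and the lower ones highest there; points are libraries, open at 0, and bars are group means.

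Purine salvage and breakdown as a whole did not move one way. Of 29 genes 20 were tested, and 1, xdh, fell in slow muscle against untreated neural crest, with 0 counts in both slow muscle libraries, 23.1 and 11.3 CPM in cyclopamine neural crest and 56.5 and 50.9 CPM in untreated neural crest (edgeR adjusted p = 0.0177). xdh encodes xanthine dehydrogenase, which acts in purine breakdown and in pteridine pigment synthesis. The list's median log2 fold change was -0.23 in slow muscle against untreated neural crest. There edgeR called 0.876% of all tested genes lower. DESeq2 called 3 of the 20 lower and 1 higher, against 5.34% and 10.2% of all tested genes. hprt1, a gene of the salvage enzyme for hypoxanthine and guanine, measured 52.7 and 46.2 CPM in slow muscle, 35.8 and 29.8 CPM in cyclopamine neural crest, and 39.7 and 53.5 CPM in untreated neural crest. Its slow muscle and untreated values overlapped, and both cyclopamine libraries lay below them without passing the test (edgeR adjusted p = 0.869 against untreated neural crest). hprt1l, also on the list, did not share this. It measured 1.53 and 1.82 CPM in slow muscle, 10.4 and 8.88 CPM in cyclopamine neural crest, and 11.9 and 7.87 CPM in untreated neural crest. Slow muscle against untreated neural crest gave an edgeR adjusted p of 0.267 and a DESeq2 adjusted p of 0.0296 for hprt1l.

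Pathways that supply or parallel purine synthesis were set against the 0.876% of all genes called lower by edgeR and the 5.34% called lower by DESeq2. Of 19 tested genes of one-carbon and serine supply, 1 fell in slow muscle against untreated neural crest, shmt1, a serine hydroxymethyltransferase gene, with 33.5 ± 0.327 CPM in slow muscle and 160 ± 16.2 CPM in untreated neural crest (SD, n = 2 each, edgeR adjusted p = 0.0293). DESeq2 called 5 of the 19 lower and none higher, and 16 of the 19 had a negative log2 fold change, with a median of -0.77. Of 14 pyrimidine and deoxynucleotide genes, 1 fell, cad, which encodes the enzyme that starts pyrimidine synthesis, with 98.8 ± 20.4 CPM in slow muscle and 448 ± 38.6 CPM in untreated neural crest (SD, n = 2 each, edgeR adjusted p = 0.0407). DESeq2 called 2 of the 14 lower and 1 higher, and the median was -0.78. The cell cycle list, a measure of proliferation that bears on nucleotide demand, held 20 tested genes with no edgeR call in any comparison. DESeq2 called 3 of them lower in slow muscle against untreated neural crest, where 17 of the 20 had a negative log2 fold change. Against cyclopamine neural crest it called 6 lower in slow muscle, where 18 were negative and 5.86% of all tested genes were called lower. The list's median log2 fold change in slow muscle against untreated neural crest was -0.66. Its summed level was 1269 to 1522 CPM in slow muscle, 2398 to 3186 CPM in cyclopamine neural crest and 2493 to 2657 CPM in untreated neural crest. The part of proliferation in the members' values was not tested.

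Of the 15 other matched genes of the iridophore lineage, 11 had a count in at least 1 library and 6 in both untreated neural crest libraries. The lineage list has 20 entries, 18 of them matched to a row and 9 tested. By edgeR 2 fell in slow muscle against untreated neural crest, ltk and alx4a, where 0.876% of all tested genes were called lower. DESeq2 called 5 of the 9 lower and none higher, against 5.34% of all tested genes called lower. alx4a, a homeobox gene expressed in iridophores, measured 5.75 and 1.9 CPM in slow muscle, 205 and 59.3 CPM in cyclopamine neural crest, and 173 and 232 CPM in untreated neural crest (edgeR adjusted p = 0.0398). ednrba, an endothelin receptor gene needed for iridophores, measured 3.64 and 0.127 CPM in slow muscle, 69.1 and 44.2 CPM in cyclopamine neural crest, and 110 and 92.8 CPM in untreated neural crest (edgeR adjusted p = 0.1). The ligand genes of Ltk were nearly silent in these sorted cells, with alkal1 and alkal2b at 0 in all 6 libraries and alkal2a at 0.264 and 1.86 CPM in slow muscle and 0 in every neural crest library. gja5b and fhl2b were at 0 throughout, and lypc, alx1 and alx4b had counts in cyclopamine replicate 3 alone. tjp1a, a tight junction gene used by iridophores, ran the other way, with 265 and 299 CPM in slow muscle, 85.4 and 301 CPM in cyclopamine neural crest, and 108 and 118 CPM in untreated neural crest (edgeR adjusted p = 0.292 for slow muscle against untreated). mpv17, which encodes a mitochondrial protein, had counts in all 6 libraries, with 16.9 and 3.21 CPM in slow muscle, 13.2 and 2.07 CPM in cyclopamine neural crest, and 21.2 and 7.99 CPM in untreated neural crest, so its groups overlapped. fhl2a, gpnmb and apoda.1 stayed at or under 3.08 CPM in every library.

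The sorted neural crest also held the other pigment lineages, so the purine genes cannot be assigned to iridophores from these libraries. In slow muscle against untreated neural crest, edgeR called 6 of 11 melanophore genes and 4 of 7 xanthophore genes lower. It also called 7 of 9 neural crest genes and 3 of 9 pteridine genes lower, and none of these lists had a higher call. Of all tested genes, 0.876% were called lower and 1.67% higher. DESeq2 called 10, 7, 8 and 5 genes of these lists lower, in the same order, against 5.34% of tested genes. tyr, which encodes tyrosinase, had 0 counts in both slow muscle libraries and 547 ± 75.4 CPM in untreated neural crest (SD, n = 2, edgeR adjusted p = 0.0132). The xanthophore factor gene pax7a measured 0.0264 ± 0.0373 CPM in slow muscle and 351 ± 20.3 CPM in untreated neural crest (SD, n = 2 each, edgeR adjusted p = 0.0119). pts and qdpra, of pteridine synthesis and recycling, measured 1.92 ± 0.565 and 18.9 ± 0.861 CPM in slow muscle and 756 ± 103 and 402 ± 10.9 CPM in untreated neural crest (SD, n = 2 each, edgeR adjusted p = 0.0119 and 0.0211). The part of each pigment lineage in the members' values was not tested.

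The slow muscle sort in turn held RNA of other cells. Of the slow muscle list, 5 of 8 tested genes rose there against untreated neural crest, as did 3 of 8 endothelial genes and 1 of 9 epidermal genes, krt97. By edgeR, 1.67% of all tested genes were called higher. DESeq2 called 7 of 8 slow muscle, 8 of 8 endothelial and 7 of 9 epidermal genes higher, against 10.2% of tested genes. The endothelial sum was 1726 to 1925 CPM in slow muscle, 112 to 209 CPM in cyclopamine neural crest and 237 to 239 CPM in untreated neural crest, and the epidermal sum was 7889 to 10850, 308 to 1486 and 553 to 812 CPM in the same groups. Notochord and floor plate genes summed to 734 to 785 CPM in slow muscle, 31.6 to 779 CPM in cyclopamine neural crest and 24.1 to 31.4 CPM in untreated neural crest. Most of the slow muscle sum came from ntd5, with 649.9 and 725 CPM in slow muscle, 9.15 and 98.3 CPM in cyclopamine neural crest, and 6.01 and 12.4 CPM in untreated neural crest (edgeR adjusted p = 0.064 for slow muscle against untreated). No erythroid, myeloid, neural tube or notochord gene was called by edgeR in that comparison, and DESeq2 called 2 myeloid and 1 neural tube gene lower and 1 notochord gene higher. The part of these cells in the low slow muscle levels of the members was not tested.

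Profiles over the 6 libraries placed the members in small neighbourhoods. Likeness was the root mean square difference of log2(CPM + 1) values, each gene centred on its own mean, over 9854 genes with a mean of at least 10 CPM, and it is a description. The added 1 limits the fall of a gene at or near 0 CPM in slow muscle. Such a gene can therefore lie near one with a smaller fold change. ltk lay nearest csf1ra, a xanthophore receptor gene, at 0.336, then qkib at 0.345 and pcdh9 at 0.505, and like ltk, csf1ra was higher in cyclopamine replicate 4 than in replicate 3, with 215 and 94.9 CPM. pnp4a lay nearest pah at 0.20, mocos at 0.49 and the melanin enzyme gene dct at 0.52. dct measured 62.2 and 3.24 CPM in cyclopamine replicates 3 and 4, so it too was far lower in replicate 4. tfec lay nearest nt5dc2 at 0.17, phf21aa at 0.23 and mthfd1b at 0.26.

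Over all genes, gmps stood among the nearest genes of paics, and no other member was placed in this way. The pteridine genes qdpra and xdh stood among the nearest of gart, atic and impdh1b. Of these, xdh, also a purine breakdown gene, was at 0 CPM in slow muscle, where the mean of impdh1b was 65.5 CPM. Within the members alone, where the nearest is a member by construction, atic and impdh1b were each other's nearest at 0.30. So were paics and gmps at 0.30. Over all genes, gart lay nearest rab38c at 0.22, gal3st1a at 0.25 and qdpra at 0.27. atic lay nearest rabl6b at 0.29, qdpra at 0.29 and tspan10 at 0.30. impdh1b lay nearest si:dkey-106n21.1 at 0.24, xdh at 0.25 and aatkb at 0.26. paics lay nearest si:dkey-21a6.5 at 0.22, gmps at 0.30 and ckbb at 0.33, and gmps lay nearest the same si:dkey-21a6.5 at 0.19, palm1b at 0.20 and rab32a at 0.22. pfas stood among genes of small change, tns3.2 at 0.09, smarcb1b at 0.12 and tubgcp2 at 0.12. ltk was the member farthest from the others, 1.38 from its nearest, gart.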

How the data were processed

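RNA was counted in 6 libraries of sorted zebrafish cells. The authors deposited raw counts of reads by Ensembl gene, made per the labels from polyA RNA with a stranded kit and paired reads of 150 bp. Per the submitters' processing notes the tools were STAR, featureCounts, Subread and DESeq2, with no versions. Not given in the sources used here are the genome build, annotation, strand setting and treatment of multiply mapped reads. A deposited log2 table of the same libraries was not used. Titles of the untreated neural crest libraries say slow-twitch, but tissue and source say neural crest, and these were followed.

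Counts were tested with edgeR 4.0.16 in R 4.3.3 (quasi-likelihood, TMM, filterByExpr with minimum count 10 and minimum total 15), with all 6 libraries in 1 fit of 3 groups. Two-sided p-values were adjusted by Benjamini-Hochberg over the 17701 genes, with a threshold of 0.05. CPM are over the TMM-normalised library size, given in replicate order. SE and 95% intervals derive from the test statistic. The common dispersion was 1.132. The comparisons share libraries, so no overlap between them was computed. Alternatives were no filter and a stricter filter, RLE and upper quartile scaling, DESeq2 1.42.0, fits of the compared groups alone, leaving out each library, and a replicate block. The fold bounds and list genes with a library left out were added after the data were seen. The procedure was tested on simulated counts.

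The members and 18 lists (215 entries, 2 unmatched) were chosen with earlier results of these data known. Named list genes were up to 4 called genes per direction with the largest change, or the 2 most abundant. tfeb, tfe3b, tyrp1b, ppat, adsl, the impdh2, adss1, adss2 and pnp5a genes, hprt1, hprt1l, snai1b, pnp5b, impdh1a, ednrba, tjp1a, mpv17, trpm1b, gch2, ntd5, the ligand and undetected iridophore genes were named after their values were seen. No sequences are printed, since the tables used here hold none.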

Additional observations from a re-analysis of the deposited data

How the results depend on the processing

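Over 13 alternatives, ltk, gart and impdh1b remained called lower in slow muscle than in untreated neural crest, with highest edgeR adjusted p of 0.0351, 0.0379 and 0.0484. Members called in that comparison numbered 3 to 9 when a library was left out. Against cyclopamine neural crest the 4 calls became 8 with no filter on low counts (2.09% of genes lower), 7 with upper quartile scaling (1.33%), 8 with DESeq2 (5.86%), 0 with the compared groups alone (0%) and 2 to 8 with a library left out. In cyclopamine against untreated neural crest, members called ranged over 0 to 5 with a library left out. There, 3 members turned direction with the cyclopamine library left out. Their log2 fold changes without replicate 3 and without replicate 4 were 1.26 and -0.23 for ltk, -0.39 and 0.65 for tfec, and -1.74 and 0.13 for atic. Genes called in cyclopamine against untreated neural crest, 0 by edgeR, were 21 with no filter, 300 with DESeq2 and 0 to 1366 with a library left out. In slow muscle against untreated neural crest, 451 became 1408 with no filter, 2754 with DESeq2, 2368 with the compared groups alone and 108 to 3013 with a library left out. In slow muscle against cyclopamine neural crest, 385 became 1277, 2735, 0 and 204 to 3581 under the same settings. The cause of these differences was not tested.

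Upper quartile scaling moved the median log2 fold change of all genes from 0.08 to -0.16 in slow muscle against untreated neural crest and from 0.12 to -0.11 against cyclopamine neural crest, and RLE scaling to 0.16 and 0.19. The members' medians were then -4.55 and -4.08 with upper quartile scaling. The share of calls that were lower became 47.6% and 52% with upper quartile scaling, against 34.4% and 36.6%.

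Slow muscle and untreated neural crest share replicate numbers, and the labels do not say whether same-numbered samples came from the same embryos. The deviations of same-numbered samples from their group means had a correlation of 0.0148 over 17701 genes. With 2 replicates per group, that value cannot decide whether the samples were paired. With the replicate block 5 members and 242 genes were called (0.458% of genes lower), paics being lost (edgeR adjusted p = 0.0619). No paired analysis was possible for cyclopamine neural crest because its libraries share no number with another group. The part of depth in these results was not tested. Counts of 0 were not limited to genes near the floor of 0.127 to 0.177 CPM. In cyclopamine replicate 4, 1164 genes were at 0 that reached 100 counts in replicate 3.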
